A study of Mus musculus with 6 samples.

Results

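The genes described here are 10 imprinted genes linked to growth, H19, Igf2, Dlk1, Meg3, Rian, Mirg, Cdkn1c, Peg3, Plagl1 and Grb10, chosen by name. They were looked up in the deposited table of a bulk RNA sequencing experiment on injured mouse quadriceps muscle. The table holds 14016 genes, and 6 of the 10 are among them: Igf2, Dlk1, Cdkn1c, Peg3, Plagl1 and Grb10. H19, Meg3, Rian and Mirg are not listed, neither under these symbols nor under older ones. The 6 genes found encode proteins, and the 4 that are not listed are annotated as noncoding.

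The experiment compared 3 WT mice with 3 GATA-1 mutant mice 7 days after volumetric muscle loss, in which a part of the quadriceps was cut away. All 6 mice carried this injury and none received an implant. In the study's methods, the defects of control mice were filled with saline. The mutants are the ΔdblGATA strain, in which a deletion of GATA-binding sites at Gata1 leaves the animals without eosinophils, and WT mice were adult C57BL/6 females per the study's methods. The labels give no age and no strain background for the mutants. RNA with a poly(A) tail was sequenced from whole muscle, so fewer cells of a type and less RNA per cell cannot be told apart.

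Imprinted genes are expressed mainly from the copy inherited from one parent, a memory set by DNA methylation in the egg or sperm. Many act on growth before birth, are turned down afterwards, and return when adult muscle regenerates from its stem cells. Genes expressed from the father's copy, such as Igf2, Dlk1, Peg3 and Plagl1, tend to favour growth, and genes expressed from the mother's copy, such as H19, Cdkn1c and Grb10 in most tissues, tend to restrain it. The parental origin of the reads was not measured in these libraries. No uninjured muscle and no other day was sequenced with them, so whether these genes had returned after injury could not be tested.

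The value that could be read for each gene is the authors' mean log2 CPM, the log2 of read counts scaled to library size (CPM), averaged over all 6 mice. It has no SD, because single mice have no value of their own in it. The table's other numbers are the authors' own fold changes, test statistics and p-values for GATA-1 mutant over WT, and these were not used. The genotypes are therefore not compared, and no difference between 2 genes below carries a test. For the same reason the depth of each library is unknown. The methods state a filter of over 1 CPM in 3 or more samples, but 1198 listed genes have a mean of 0 log2 CPM or less, down to -4.08, so that no minimum level per mouse was read from the listing of a gene.

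The tissue label was checked against fixed markers. All 8 genes of mature muscle fibres were listed, between 10.56 and 14.65 log2 CPM, with Acta1 (skeletal actin) at 14.30 and Myh4 (fast myosin) at 14.65. All 8 genes of myoblasts and regenerating fibres were listed too, between 2.17 and 8.88 log2 CPM, including the embryonic and perinatal myosins Myh3 at 8.09 and Myh8 at 8.88. The 6 fibroblast genes ranged from 5.73 to 11.75 log2 CPM, the 4 endothelial genes from 4.73 to 6.53, the 4 macrophage genes from 4.71 to 9.12 and the 4 adipocyte genes from 0.87 to 6.60. The 4 Schwann cell genes reached 3.86 and the 3 erythroid genes 7.53 log2 CPM. Neutrophil genes were listed for 2 of 4, none above 0.52, and T and B cell genes for 3 of 5, none above 1.73. Of 8 eosinophil genes only Ear2 was listed, at 0.13 log2 CPM, and Gata1 itself was not, so the targeted gene gives no check of the genotypes. Which of these cells expressed the imprinted genes was not tested.

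Because a longer transcript yields more reads, levels of different genes were compared per kilobase of the longest coding transcript. On this scale the median of the 13945 genes with a known length was 2.28 log2 CPM per kilobase. All 6 listed imprinted genes stood above it, between 3.11 and 6.22, with a median of 4.96. Before the length correction they ranged from 5.33 to 8.12 log2 CPM, against a median of 4.03 for the whole table. Their CPM, taken back from the log scale, summed to 927, against 924064 for all genes of the table.

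**Figure D1:**
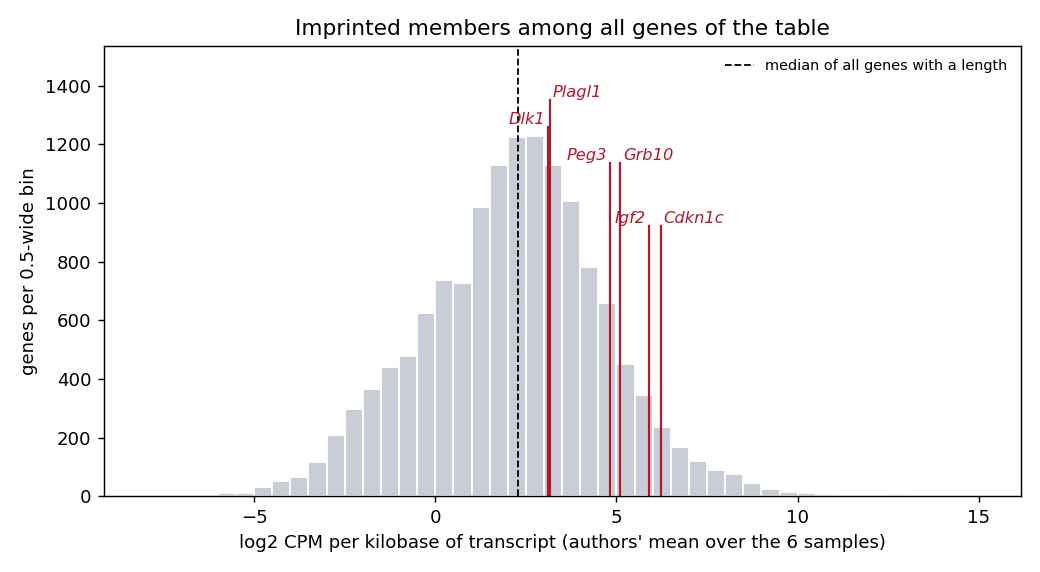
The histogram shows how many genes fall in each bin of log2 CPM per kilobase of transcript, with the median of 2.28 as a dashed line and the 6 listed imprinted genes as red lines. Dlk1 and Plagl1 sit just right of the median, Peg3 and Grb10 near 5, and Igf2 and Cdkn1c near 6.

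Igf2 encodes insulin-like growth factor 2, a secreted growth factor that myoblasts make as they differentiate. Its mean was 8.12 log2 CPM, equal to 279 CPM, which 340 genes of the table reached or exceeded, itself included. Per kilobase it stood at 5.89 log2 CPM, above or equal to 93.6% of genes. This level is uncertain because the GENCODE M21 annotation places the read-through gene Gm49394 over Igf2, and 61.9% of the 31-base words of Igf2 transcripts also occur in it. Gm49394 is not listed, and how reads were divided between both was not tested.

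Cdkn1c encodes p57, an inhibitor of cyclin-dependent kinases that helps myoblasts leave the cell cycle. Its mean of 7.14 log2 CPM, or 141 CPM, went with short transcripts, the longest coding one of 1901 nt. Per kilobase it was thus the highest of the 6 genes, at 6.22 log2 CPM and above or equal to 95.1% of all genes. Of its 31-base words 27.2% occur, on the other strand, in the antisense gene Gm44732, which is not listed. Whether strand was used in the assignment of reads is not given in the sources used here.

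Grb10 encodes an adaptor protein that binds the insulin and IGF receptors and damps their signal. Its mean was 7.44 log2 CPM, or 173 CPM, and its level per kilobase was 5.10 log2 CPM. None of its 31-base words occur in another gene. On both scales it took the third place among the 6 genes.

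Peg3 encodes a large zinc finger protein found in muscle stem cells and other progenitors. Its mean of 7.94 log2 CPM, or 246 CPM, was second only to that of Igf2 before the length correction. Its only coding transcript is 8694 nt long, the longest of the 6, so that its level per kilobase fell to 4.82 log2 CPM, in the fourth place. It shared 0.030% of its words with other genes.

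Plagl1 encodes a zinc finger transcription factor, also known as Zac1, that acts on a network of other imprinted genes, and Dlk1 encodes a membrane protein of the Delta-like family that restrains adipocyte formation and affects muscle growth. Both were lower than the other 4 genes. Plagl1 had 5.56 log2 CPM and 3.17 per kilobase, and Dlk1 5.33 log2 CPM and 3.11 per kilobase. The step from Peg3 down to Plagl1 was 3.15-fold per kilobase, while Plagl1 and Dlk1 differed by 0.06 on the log2 scale. The whole range from Cdkn1c to Dlk1 was 8.60-fold. Dlk1 shared no words with other genes, and Plagl1 shared 0.248%.

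The order depended on the transcript length used. Annotation gives Igf2 7 coding transcripts of 376 to 4722 nt and Plagl1 7 of 364 to 5260 nt, and which of them the reads came from cannot be read from a sum per gene. With the median transcript of each gene in place of its longest coding one, Igf2 at 8.19 log2 CPM per kilobase passed Cdkn1c at 7.73, and Plagl1 at 6.71 passed Peg3 at 5.93. Grb10 stayed in the third place and Dlk1 in the last. The median was taken over all annotated transcripts of a gene, noncoding ones included. For Plagl1 it was 452 nt, over 25 transcripts of which 7 were coding. The order of Igf2 and Cdkn1c, and that of Peg3 and Plagl1, thus rests on the length chosen.

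**Figure D2:**
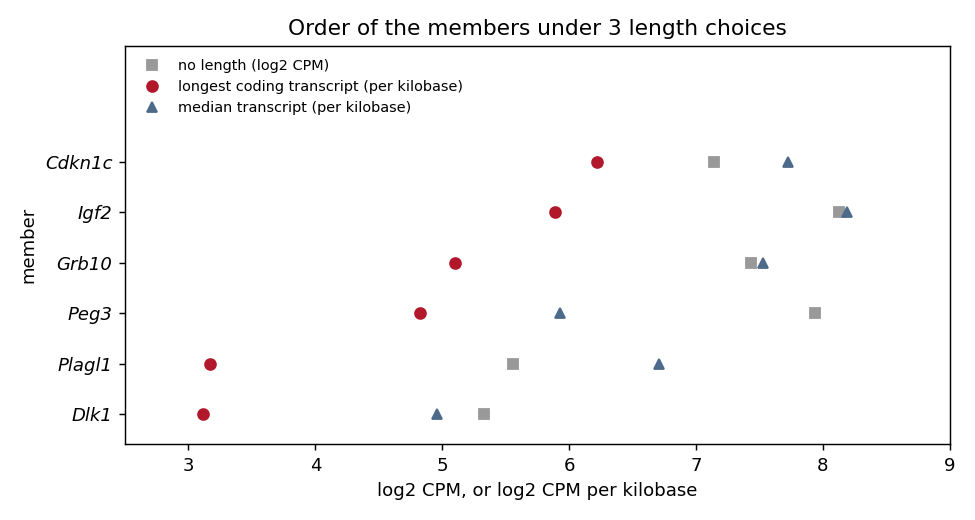
Each row is a listed imprinted gene, with its mean log2 CPM (grey squares) and its log2 CPM per kilobase of the longest coding transcript (red circles) or of the median transcript (blue triangles). Cdkn1c is highest by the red circles at 6.22, Igf2 by the blue triangles at 8.19, and Dlk1 is lowest by all 3.

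The 4 genes that are not listed are long noncoding RNAs. H19 lies next to Igf2 on chromosome 7, and Meg3, Rian and Mirg follow Dlk1 on chromosome 12 as parts of a long stretch transcribed from the mother's copy. H19, Meg3 and Mirg are annotated as lincRNA and Rian as processed transcript. Their absence goes with that of their class. Of 10143 gene symbols that GENCODE M21 annotates as long noncoding, 13 (0.128%, 95% Wilson interval 0.075% to 0.219%) were in the table, against 13224 of 21924 protein-coding symbols (60.3%, interval 59.7% to 61.0%). Malat1, Neat1, Snhg1, Gas5 and Xist, widely expressed noncoding RNAs named after the table had been seen, were 0 of 5 listed, while Tug1, another of this kind, was listed at 5.38 log2 CPM. The transcript index that the reads were assigned to is not given in the sources used here. The table therefore sets no upper limit on the level of H19, Meg3, Rian or Mirg in these muscles.

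These noncoding RNAs are also precursors of small RNAs, which libraries made from poly(A) RNA do not measure. Of 20 miRNA hairpins that lie inside the 10 genes on the same strand, 19 lie in the 4 genes that are not listed, 14 of them in Mirg, 3 in Rian and 1 each in H19 and Meg3. The remaining hairpin, Mir483, lies in Igf2. The 38 mature miRNAs made from them hold 37 different seeds, the bases 2 to 8 that pair with a target. The sequences below, from RefSeq on GRCm38.p6, show 1 pair each from Igf2 and H19 on chromosome 7 and from Meg3 and Rian on chromosome 12, and the only 2 that share a seed, both from Mirg; they are written 5′ to 3′ with the seed in capitals.
mmu-miR-483-5p (Igf2): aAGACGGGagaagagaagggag
mmu-miR-483-3p (Igf2): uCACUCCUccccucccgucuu
mmu-miR-675-5p (H19): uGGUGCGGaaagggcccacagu
mmu-miR-675-3p (H19): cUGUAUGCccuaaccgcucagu
mmu-miR-770-5p (Meg3): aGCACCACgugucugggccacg
mmu-miR-770-3p (Meg3): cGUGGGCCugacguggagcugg
mmu-miR-370-5p (Rian): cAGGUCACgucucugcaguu
mmu-miR-370-3p (Rian): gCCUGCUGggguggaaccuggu
mmu-miR-453 (Mirg): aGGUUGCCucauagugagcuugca
mmu-miR-496a-5p (Mirg): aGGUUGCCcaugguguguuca

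Neighbours within an imprinted region differed widely in level. Each region is given here by genes chosen by name, not by every gene in it. Of 13 genes named in the region of chromosome 7 that runs from H19 to Nap1l4, 7 were listed. Cd81, a tetraspanin of the cell membrane, stood at 6.65 log2 CPM per kilobase, Cdkn1c at 6.22 and Igf2 at 5.89, whereas the potassium channel gene Kcnq1 stood at -1.46 and the transporter gene Slc22a18, which neighbours Cdkn1c, at -1.16. Ins2, Th, Ascl2, Phlda2 and the antisense RNA Kcnq1ot1 were not listed. Tssc4 at 3.10 and Nap1l4 at 4.59 lay between these extremes.

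Of 7 genes named in the region on chromosome 12, 4 were listed, and only Dlk1 of these was above the table's median per kilobase. Meg3, Rian and Mirg have no value to compare. Dlk1 at 3.11 log2 CPM per kilobase exceeded Rtl1, a gene derived from a retrotransposon, at -1.01 by 17.3-fold, and Dio3, which encodes an enzyme that inactivates thyroid hormone, at -1.25 by 20.5-fold. With the median transcript these were 62.5-fold and 63.4-fold. Begain, at the other side of Dlk1, stood at -0.35. Reads of Rtl1 and of its antisense transcripts could not be told apart without strand.

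Peg3 and Grb10 were also the highest of the listed genes named in their regions. Peg3 exceeded its neighbour Zim1, another zinc finger gene, by 7.21-fold per kilobase, or by 4.85-fold with the median transcript. Usp29 on the opposite strand was not listed. Grb10 exceeded Cobl, an actin nucleator, by 3.73-fold and Ddc, an enzyme of amine synthesis, by 16.9-fold, or by 14.2-fold and 39.8-fold with the median transcript.

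**Figure D3:**
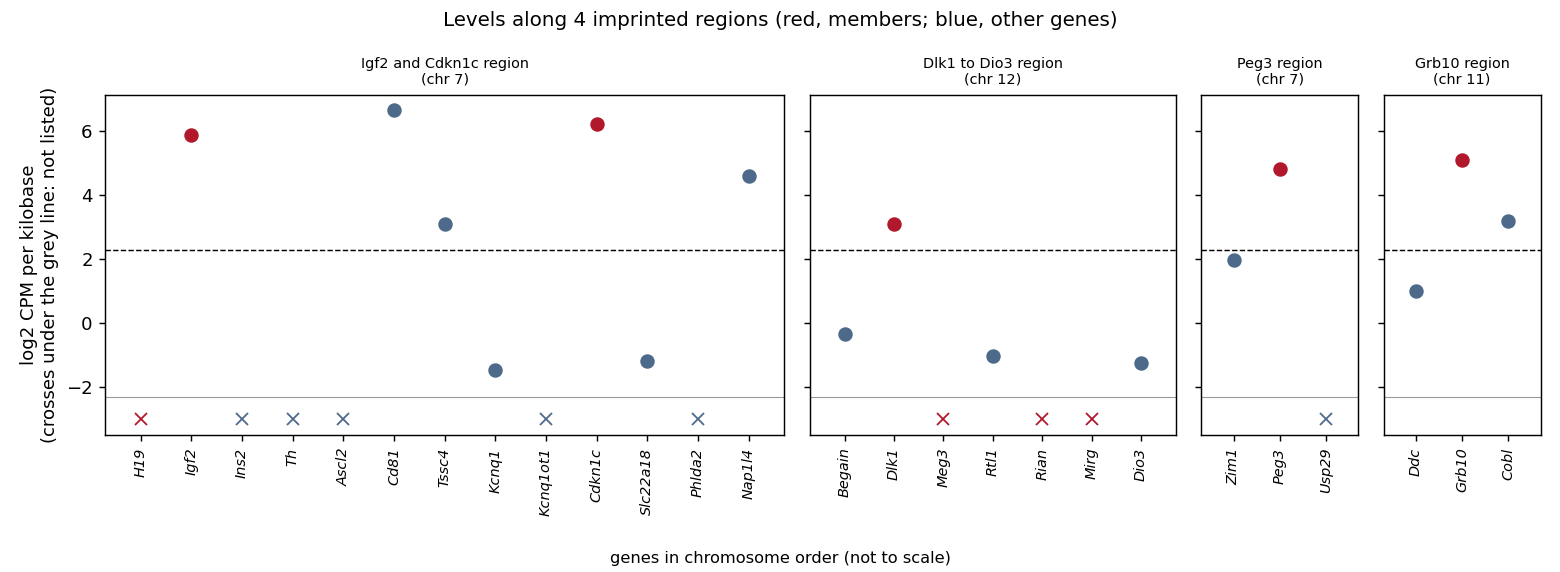
Genes of 4 imprinted regions are drawn in chromosome order, with log2 CPM per kilobase on the vertical axis. The genes under study are in red, their neighbours in blue, and genes that are not listed are crosses under the grey line. Plagl1 lies in none of the 4 regions and is not drawn. The coding genes in red lie above the dashed median of 2.28, and the 4 red crosses are H19, Meg3, Rian and Mirg.

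A wider list of 47 other imprinted genes, drawn up by name, served as a comparison. Whether each of them is imprinted in muscle was not tested, and Dcn is also among the fibroblast markers above. Of these 36 were listed, 36 of 45 coding genes and 0 of 2 noncoding ones. Their median was 2.69 log2 CPM per kilobase, and 20 of the 36 were above the table's median of 2.28. Of the 36 genes 16 were above Dlk1, the lowest of the 6 imprinted growth genes, and 3 were above Cdkn1c, the highest. These 3 were Gnas, which encodes a signalling G protein, at 8.48 log2 CPM per kilobase, Dcn, which encodes the matrix proteoglycan decorin, at 8.07, and Cd81. Mest, another gene expressed from the father's copy in growing tissue, stood at 6.08. The lowest were Calcr, the calcitonin receptor, at -2.69, Mkrn3 at -1.52 and Kcnq1 at -1.46. Of 3 genes that maintain imprints, Trim28 stood at 4.43 and Zfp57 at 0.09 log2 CPM per kilobase, and Zfp445 was not listed.

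The partners of Igf2 were then examined in order of their roles. Igf1, the related growth factor, stood at 4.22 log2 CPM per kilobase, so that the level of Igf2 was 3.18-fold that of Igf1. Igf1r, the receptor through which both ligands act, stood at 1.49, and the insulin receptor gene Insr at 2.88. Igf2r, an imprinted receptor that clears IGF2 from the surface, stood at 4.32 log2 CPM per kilobase. Igf2 was above all 4 of these genes with the longest coding and with the median transcript.

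Of 7 genes named as IGF binding proteins, most of which hold IGFs outside the cell, 6 were listed and Igfbp1 was not. Igfbp7 at 7.03, Igfbp5 at 6.91, Igfbp4 at 6.01 and Igfbp6 at 5.93 log2 CPM per kilobase were all above Igf2, and Igfbp3 at 4.30 and Igfbp2 at 1.58 were below it. With the median transcript Igf2 was instead above Igfbp7, Igfbp5 and Igfbp6, by 1.11, 1.06 and 2.25 on the log2 scale, and of these 4 only Igfbp4 stayed above it. Among the RNA-binding proteins named after Igf2 mRNA, Igf2bp2 stood at 0.44, Igf2bp3 at -2.77, and Igf2bp1 was not listed. The receptor substrates Irs1 and Irs2 stood at 2.07 and 1.44 log2 CPM per kilobase.

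Among inhibitors of cyclin-dependent kinases, Cdkn1c stood beside Cdkn1a, which encodes p21, at 6.56 log2 CPM per kilobase. The difference of -0.34 between Cdkn1c and Cdkn1a changed sign with the median transcript, to 0.34, so that they could not be ordered. Cdkn1b, which encodes p27, stood at 3.53 and Cdkn2c at 3.50, and Cdkn2b, Cdkn2a and Cdkn2d ranged from 1.29 down to -1.10. Cdkn1c was 6.46-fold higher than Cdkn1b per kilobase, or 9.68-fold with the median transcript.

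Dlk1 was compared with 9 genes of the Delta-like, Notch and Jagged families, all of which were listed. Dlk1 exceeded its closest relative Dlk2, at -1.62 log2 CPM per kilobase, by 26.6-fold, or 82.2-fold with the median transcript. The receptor genes Notch1 to Notch4 lay between 1.35 and 2.26, and the ligand genes Jag2, Jag1, Dll1 and Dll4 between 1.19 and 2.89. Dlk1 exceeded Jag2 by 0.23 and Notch3 by 0.85 on the log2 scale, and both orders turned with the median transcript.

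Grb10 was 3.64-fold above Grb14, its close relative, per kilobase, or 7.44-fold with the median transcript, and Grb7 was not listed. Grb2, an adaptor used by many receptors, stood at 5.22 log2 CPM per kilobase, 0.12 above Grb10 with the longest coding transcript and 2.09 below it with the median one. Plagl1 was 5.90-fold above Plagl2, at 0.61 log2 CPM per kilobase, or 68.1-fold with the median transcript, and Plag1 was not listed. Peg3 had no relative in these lists other than Zim1.

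**Figure D4:**
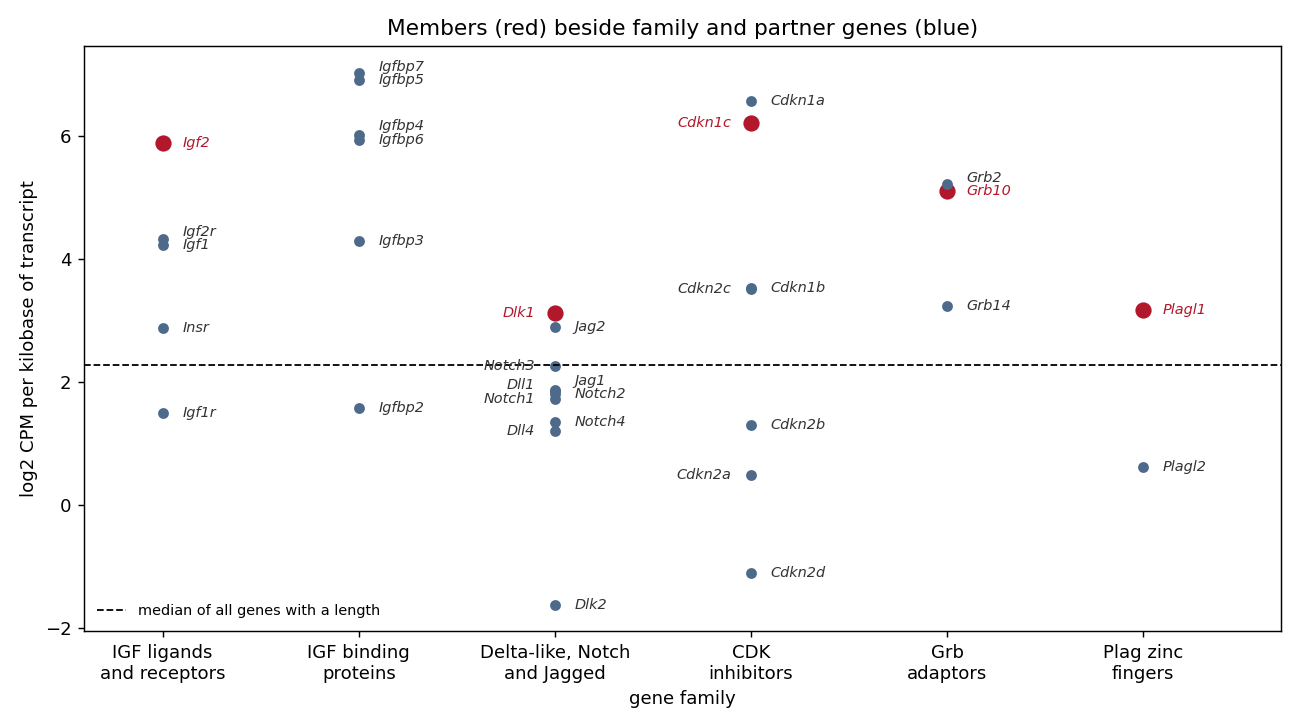
Each column is a gene family, with log2 CPM per kilobase of the longest coding transcript on the vertical axis, the imprinted gene in red, other genes in blue and the median of all genes as a dashed line. Igf2 at 5.89, Dlk1 at 3.11 and Plagl1 at 3.17 top their columns, IGF binding proteins having a column of their own without an imprinted gene, while Cdkn1c lies just under Cdkn1a and Grb10 just under Grb2.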

How the data were processed

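Quadriceps RNA of 3 WT and 3 GATA-1 mutant mice was sequenced in pairs of reads after poly(A) selection. The authors assigned reads with kallisto, summed transcripts to genes, derived CPM by edgeR, required over 1 CPM in 3 or more samples, normalized by TMM and fitted limma. The deposited log2 value used here is the authors' mean log2 CPM over all 6 samples. The other 5 columns (log2 fold change, moderated t, p-value, adjusted p-value and log odds) are the authors' comparison of genotypes and were not used. The planned limma test needs values per sample and was not run, and depth per sample is unknown.

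The submitters' processing notes name GRCm39, while the annotation at hand was GENCODE M21 (GRCm38), so no coordinates are given. It was used for names, gene types, gene order and lengths. Of 14016 rows, 1 has no symbol, 13458 matched directly and 487 through older symbols (99.5% with a length). Sequence sharing was counted over all transcripts of a gene, as the percent of 31-base words, taken on both strands, that another gene also holds. Rank functions and word counts were tested on simulated data (Python 3.11.15, pandas 2.3.3, SciPy 1.17.1). The wider imprinted, family and marker lists were taken by name. Named from them are the 3 highest, the 3 lowest and genes beside each imprinted gene. The genes and lists were chosen with earlier results of these data known.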

Additional observations from a re-analysis of the deposited data

How the results depend on the processing

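No paired analysis was possible because the values used are 1 mean per gene over all 6 samples. For the same reason no genotype test was made, and the fits without TMM, without a filter, with another pseudocount, with a replicate block, leaving out each mouse or with DESeq2 were not run. The percent of genes at or below each gene was taken on log2 CPM over the whole table. It was 97.6% for Igf2, 97.0% for Peg3, 95.2% for Grb10, 93.8% for Cdkn1c, 78.4% for Plagl1 and 74.6% for Dlk1. Among protein-coding genes only it was 97.5%, 96.9%, 95.0%, 93.6%, 77.8% and 73.9% in the same order. Among genes with a mean of at least 1 log2 CPM it was 97.2%, 96.5%, 94.3%, 92.7%, 74.5% and 70.0% in the same order, as fewer low genes remain. Per kilobase it was 93.6%, 86.8%, 89.2%, 95.1%, 65.6% and 64.6%. The places per kilobase were 1 for Cdkn1c, 2 for Igf2, 3 for Grb10, 4 for Peg3, 5 for Plagl1 and 6 for Dlk1. The longest transcript of any type could not change them. For each of the 6 genes it has the same length as the longest coding one. With the median transcript Cdkn1c took place 2, Igf2 1, Peg3 5 and Plagl1 4, and with no length correction Cdkn1c took place 4, Igf2 1 and Peg3 2. Of the 47 other imprinted genes 36 were listed with exact symbols only, and 30 had at least 1 log2 CPM.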
